A study of Mus musculus with 4 samples.

Results

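Chromatin cluster 10 is a set of 1842 single cells among the 43782 PB3 cells of the series, taken from the cell table by the submitters' own cluster number. PB3 is a mouse mammary tumor cell line, so every library stems from 1 line. The clusters were drawn on the accessible regions of 4 libraries together. Treated cells had 4 rounds of 500 nM eribulin, each of 72 h with 48 h without drug, and were profiled by single-cell ATAC-seq (scATAC, run 1) and by the chromatin side of a multiome assay (run 3), which reads RNA and open chromatin from the same nucleus. Untreated cells without drug were profiled by the same assays, and each of these 4 groups was 1 library. Cluster 10 had 1533 of 16724 eribulin scATAC cells, 277 of 8114 eribulin multiome cells, 20 of 9361 untreated scATAC cells and 12 of 9583 untreated multiome cells. The deposited tables used here hold no value of a single gene or peak, so no marker could be checked and the cluster is called by its number.

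Eribulin binds the growing ends of microtubules and disturbs the mitotic spindle. In ATAC-seq the Tn5 transposase cuts DNA where chromatin is open, and cells with like sets of open regions are grouped into clusters. A lentiviral barcode is a short DNA tag that integrates into the genome of a cell and is passed to all its descendants, so that cells with the same barcode form a lineage. A lineage and a chromatin state can therefore be read in the same cell. Whether a barcode call depends on the chromatin state is not known, because the sources used here do not give how barcodes were called. The barcodes were not part of the open regions on which the clusters were drawn.

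Cluster 10 was the fourth most frequent state of eribulin scATAC cells and the fifth of eribulin multiome cells. It held 9.17% (8.73 to 9.61) of the first library and 3.41% (3.03 to 3.83) of the second, with exact 95% binomial (Clopper-Pearson) intervals throughout. These intervals cover counting error among cells, not differences between cultures. No test between groups was made, because each group is 1 library and cells are not replicates. The untreated shares were 0.214% (0.131 to 0.330) in scATAC and 0.125% (0.0647 to 0.219) in the multiome assay. The libraries had 49446970 to 127710435 cut sites in peaks, with medians of 4229.5 to 7440 per cell. No cell barcode occurred in both eribulin libraries. The scATAC libraries of treated and untreated cells shared 215 cell barcodes, which 16 eribulin cells of the cluster carried, and the multiome libraries shared 123, which 7 carried. No untreated cell of the cluster carried one. Without these cells cluster 10 held 9.19% and 3.38% of the eribulin libraries.

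On the deposited UMAP, a map of cells by likeness of accessibility, most eribulin scATAC cells of the cluster formed a compact island. Of the 30 nearest cells of the same library, a median of 96.7% (quartiles 90% and 100%) were also in cluster 10. In the eribulin multiome library the median was 60%, with quartiles of 3.33% and 90%. Cells with at least 50% of such neighbours are called core cells here, and the others outer cells. The core made up 85.8% (83.9 to 87.5) of the scATAC cells, or 1315, and 53.1% (47.0 to 59.1) of the multiome cells, or 147. The clusters and the map come from the same components of the peaks, so these shares describe the cluster and do not test it.

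**Figure D1:**
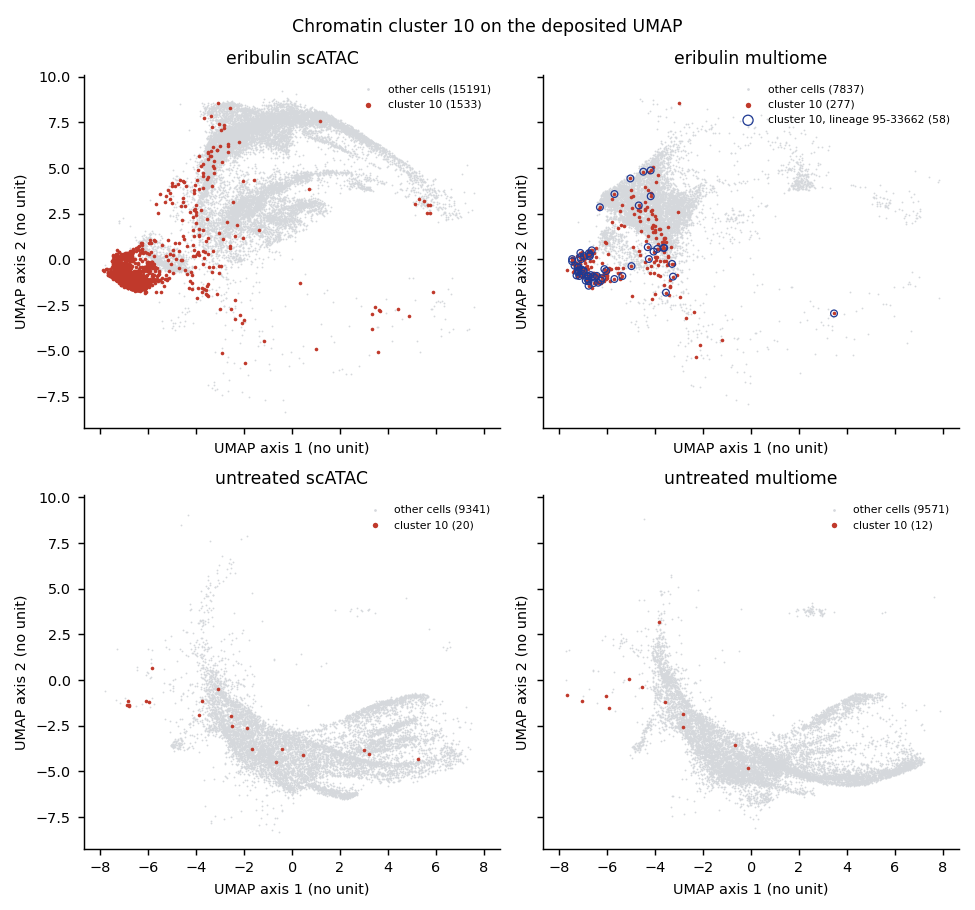
Each panel plots the cells of 1 library on both axes of the deposited UMAP, which have no unit, with cluster 10 in red, other cells in grey and, in the eribulin multiome panel, rings around the 58 cluster 10 cells of lineage 95-33662. The 1533 scATAC and 277 multiome cells of the cluster share an island at the left edge, and the multiome cells are spread more widely beyond it.

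The core cells of both assays lay in the same location on this map of all libraries together. Core cells were chosen by their cluster 10 neighbours on it, so the shares that follow describe the map and are no independent agreement of the assays. Around core cells of the multiome library, 94.2% of the 30 nearest eribulin scATAC cells were in cluster 10. Around core cells of the scATAC library, 90.2% of the 30 nearest eribulin multiome cells were. The outer cells lay among other states: the scATAC cells nearest to outer multiome cells were in cluster 12 in 23.6% of cases, in cluster 10 in 18.8%, in cluster 11 in 14.4%, in cluster 7 in 12.8% and in cluster 1 in 11.6%. Within the multiome library itself, the neighbours of all 277 cells were in cluster 10 in 49.1%, in cluster 0 in 30.3% and in cluster 12 in 10.5% of cases. Outer multiome cells were shallower than core cells, with medians of 2853 and 5748 cut sites. In scATAC the order was the opposite, at 4639 in outer and 4322 in core cells. The part of depth in the spread of the outer cells was not tested.

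The lineages in cluster 10 were then compared with those in the other cells of the same library. In the eribulin multiome library most called cells of the cluster were of 1 lineage, 95-33662, named by the numbers of the short and the long part of its barcode. This lineage had 58 of the 83 cluster 10 cells with a single called barcode, or 69.9% (58.8 to 79.5). Among the other called cells of the library it had 118 of 1308, or 9.02% (7.52 to 10.7). The ratio of the shares was 7.75. A second, small lineage, 29-49561, had 8 of the 83 cells (9.64%, 4.25 to 18.1) and 10 of the 1308 (0.765%, 0.367 to 1.40), a ratio of 12.6. It is named only because it had at least 5 cells in cluster 10, so its ratio rests on the count that chose it.

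The barcodes of both lineages are shown with those of the 2 most frequent lineages of that library, because the lineage shares rest on these tags. Each has 48 bases, printed from the first base, with the short part of 14 bases and the linker of 4 in lower case and the long part, bases 19 to 48, in capitals.
95-33662: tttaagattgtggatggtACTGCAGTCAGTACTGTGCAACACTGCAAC
29-49561: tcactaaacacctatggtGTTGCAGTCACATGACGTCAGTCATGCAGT
76-49517: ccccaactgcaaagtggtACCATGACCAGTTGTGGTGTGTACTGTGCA
6-93034: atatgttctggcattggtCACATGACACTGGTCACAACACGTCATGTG
The long parts of 95-33662 and 29-49561 differ at 16 of 30 bases and their short parts at 11 of 14. Among the 6 lineages described here the long parts differ from each other at 16 to 30 bases. Where the cell table gives a sequence with the name, it equals the list's sequence in all 43 cells of 95-33662 and all 18 of 29-49561.

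The lineages most frequent elsewhere in the multiome library had low shares of the called cells in cluster 10. The 69.9% of 95-33662 there lowers the share of every other lineage. Lineage 76-49517 had 5 of the 83 called cells (6.02%, 1.98 to 13.5) against 433 of 1308 (33.1%). Lineage 6-93034 had 4 (4.82%, 1.33 to 11.9) against 399 (30.5%). Lineage 55-23349 had 1 cell against 145 (11.1%), and its intervals of 0.0305 to 6.53 and 9.43 to 12.9 do not overlap. Only for 39-41529 among the named lineages did the intervals overlap, with 2 cells (2.41%, 0.293 to 8.43) against 79 (6.04%, 4.81 to 7.47). Of all called cells outside 95-33662, 25 of 1215 (2.06%, 1.34 to 3.02) were in cluster 10. The shares of 76-49517 (1.14%, 0.372 to 2.64), 6-93034 (0.993%, 0.271 to 2.52) and 55-23349 (0.685%, 0.0173 to 3.76) cells there have intervals that overlap this one. Low shares beyond the effect of 95-33662 were therefore not established. In all, 9 distinct barcodes were called in cluster 10, 3 of them in a single cell each, and 27 in the other cells. Without cells whose cell barcode also occurs in the untreated library, 95-33662 had 57 of 80 called cells (71.3%) against 118 of 1296 (9.10%).

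**Figure D2:**
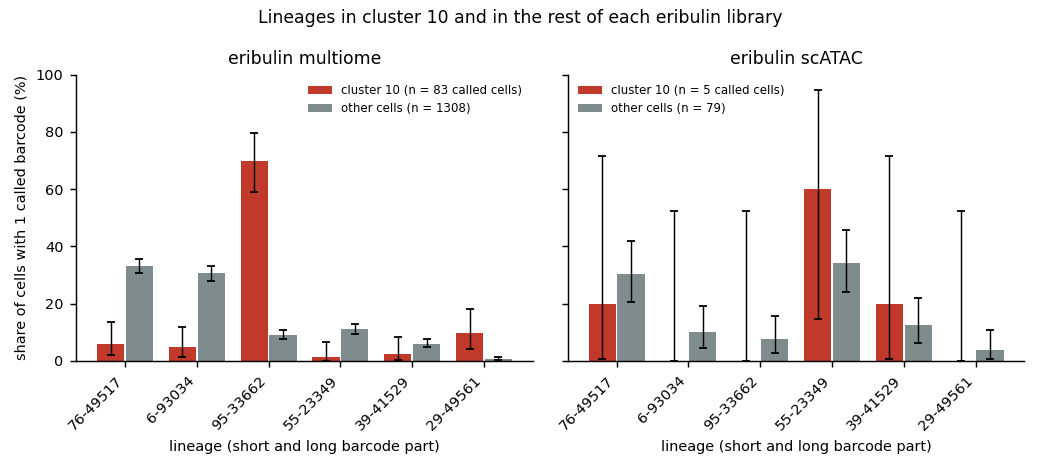
Bars give the share of cells with 1 called barcode (%) that each of the 6 named lineages had in cluster 10 (red) and in other cells (grey) of the eribulin multiome and scATAC libraries, with exact 95% binomial intervals. In the multiome panel 95-33662 stands at 69.9% in cluster 10 and 9.02% elsewhere, whereas none of the 5 called scATAC cells of the cluster carried it.

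Seen from the lineages, cluster 10 was a minority state even for 95-33662. Of its 176 eribulin multiome cells, 58 (33.0%, 26.1 to 40.4) were in cluster 10 and 95 (54.0%, 46.3 to 61.5) in cluster 0, the state with 78.5% of the library. Cluster 15 had 9 of its cells, cluster 12 had 7, cluster 11 had 5 and cluster 13 had 2. Lineage 29-49561, named by its count in cluster 10, had 8 of 18 cells (44.4%, 21.5 to 69.2) there and 7 in cluster 0. The other 8 lineages with at least 10 cells had between 0% and 6.52% of their cells in cluster 10. The highest of these 8 was 55-98358, with 3 of 46 cells (1.37 to 17.9), named after its values were seen. Lineage 76-49517 had 5 of 438 (1.14%, 0.372 to 2.64) and 6-93034 had 4 of 403 (0.993%, 0.271 to 2.52).

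**Figure D3:**
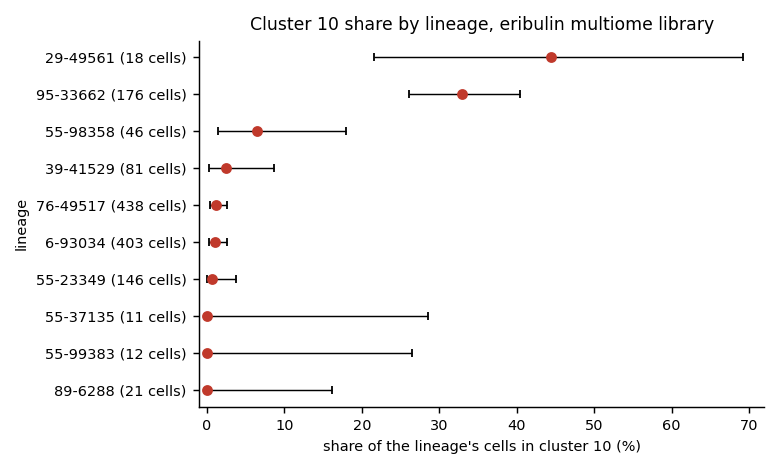
Points give the share (%) of each lineage's eribulin multiome cells that lay in cluster 10, with exact 95% binomial intervals, for the 10 lineages of at least 10 cells. Lineages 29-49561 and 95-33662 stand at 44.4% and 33.0%, and the other 8 lie at 6.52% or below.

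The share of 95-33662 cells in cluster 10 differed with how the barcode name was written in the table. It was 37 of 133 cells (27.8%, 20.4 to 36.3) where the name had hyphens only and 21 of 43 (48.8%, 33.3 to 64.5) where it had a sequence. All 18 cells of 29-49561 were named with a sequence. The intervals of 95-33662 overlap narrowly. Over all lineages, 49 of 1019 cells (4.81%, 3.58 to 6.31) named with hyphens only were in cluster 10. With a sequence, 34 of 372 (9.14%, 6.41 to 12.5) were, and these intervals are apart. No source used here says why the names take different forms.

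Lineage 95-33662 led cluster 10 at every depth. The multiome cells were divided into 5 bins of equal size by cut sites in peaks, from 1002 to 2085 in the shallowest to 8623 or more in the deepest. In these bins, from shallow to deep, 95-33662 had 10 of 13, 11 of 18, 9 of 12, 17 of 23 and 11 of 17 of the called cluster 10 cells, or 61.1% to 76.9%. Among the other called cells its share lay between 7.18% and 10.8%. The intervals did not overlap in any of the 5 bins, the nearest being 35.7 to 82.7 and 6.10 to 15.5 in the bin with 11 of 18.

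Lineage 95-33662 was present in the core and in the outer cells. It had 39 of the 52 called core cells (75%, 61.1 to 86) and 19 of the 31 called outer cells (61.3%, 42.2 to 78.2), with overlapping intervals. Of the 8 cells of 29-49561, 3 were core cells and 5 were outer cells. Cells of cluster 0 that had a cluster 10 cell among their 30 neighbours carried 95-33662 in 28 of 215 called cases (13.0%, 8.83 to 18.3), and those without one in 67 of 661 (10.1%, 7.94 to 12.7). In cluster 12 the counts were 6 of 100 (6%, 2.23 to 12.6) and 1 of 139 (0.719%, 0.0182 to 3.94). In cluster 11 the order was the opposite, with 1 of 21 (4.76%, 0.120 to 23.8) and 4 of 45 (8.89%, 2.48 to 21.2). The intervals overlap in each of these clusters.

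This makeup was not seen in the scATAC library, which had far fewer called cells. A single barcode was called in only 5 of its 1533 cluster 10 cells (0.326%, 0.106 to 0.759) and in 79 of its 15191 other cells (0.520%, 0.412 to 0.648). Of these 5 cells 3 carried 55-23349, 1 carried 76-49517 and 1 carried 39-41529, and all 5 were core cells. None carried 95-33662, and the exact interval of 0 of 5 reaches up to 52.2%, below the interval of 58.8 to 79.5 in the multiome library. The 6 scATAC cells of 95-33662 were in cluster 1 (3 cells), cluster 5 (2 cells) and cluster 12 (1 cell). The exact interval of 0 of 6 reaches up to 45.9% and overlaps that of the 33.0% in the multiome library. The differences between the assays were not tested. The 3 scATAC cells of 29-49561 were in clusters 1 and 7. Lineage 95-33662 had 12.7% of all called multiome cells after eribulin and 7.14% of the 84 called in scATAC, whereas cluster 10 was the larger state in scATAC. Whether both libraries came from the same treated culture is not stated in the labels.

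Barcodes were called more often in cluster 10 than elsewhere in the multiome library. A single barcode was called in 83 of 277 cells (30.0%, 24.6 to 35.7) and in 1308 of 7837 other cells (16.7%, 15.9 to 17.5). Of the 83 called cells 58 carried 95-33662 and 25 another barcode, and of the 1308 called elsewhere 118 carried 95-33662. The higher share of calls is therefore not separate from the lineage makeup. The share was higher in cluster 10 in each of the 5 depth bins, from 22.0% against 11.6% in the shallowest to 37.0% against 29.7% in the deepest. The intervals were apart in 2 of these bins, with 29.5% against 11.4% and 39.7% against 16.5%. Cluster 12 had a higher share, with 100 of 265 cells that had cluster 10 neighbours and 139 of 282 that had none. In cluster 0 these counts were 215 of 1536 and 661 of 4831, and in cluster 11 they were 21 of 128 and 45 of 242, lower shares than in cluster 10. Called cells of cluster 10 had a median of 5024 cut sites and negative ones 3716. Thus 190 of the 277 cells had no barcode and their lineage was not measured. Among core cells 35.4% (27.7 to 43.7) had a single barcode, among outer cells 23.8% (16.8 to 32.1). Cells called doublet made up 3 of 277 in the cluster (1.08%, 0.224 to 3.13) and 53 of 7837 outside it (0.676%, 0.507 to 0.884). No cluster 10 cell was called a multiplet in either eribulin library. Multiplets were also rare elsewhere, with 6 of 7837 other multiome cells (0.0766%) and 0 of 15191 other scATAC cells.

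**Figure D4:**
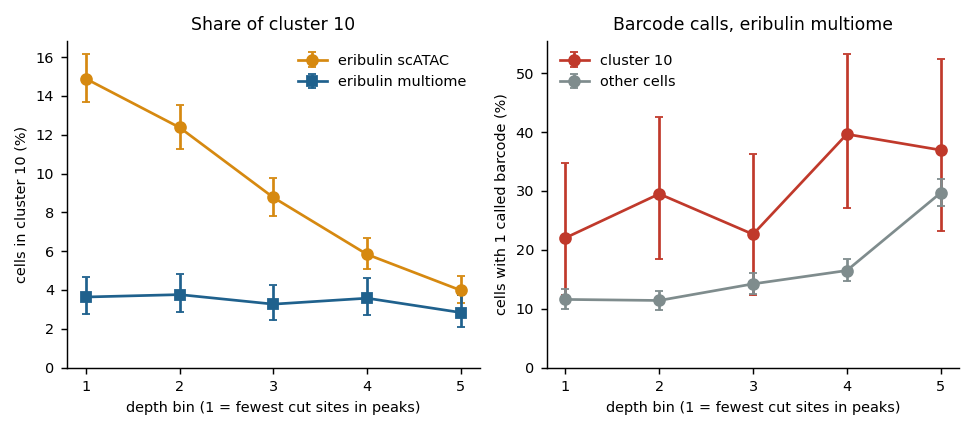
The left panel gives the share of cells (%) in cluster 10 for each of 5 bins of an eribulin library by cut sites in peaks, and the right panel the share of eribulin multiome cells (%) with 1 called barcode, all with exact 95% binomial intervals. In scATAC the cluster falls from 14.9% of the shallowest to 3.98% of the deepest cells, whereas in the multiome library it stays between 2.83% and 3.76%.

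Cluster 10 cells of the scATAC library were shallow. Their median was 4329 cut sites in peaks, against 6266 in the other cells of the library, a difference of -1937 or -30.9%. Among the 9 clusters with at least 50 eribulin scATAC cells, only cluster 12 had a lower median, of 3176.5. The cluster held 14.9% (13.7 to 16.1) of the shallowest bin of the library and 3.98% (3.34 to 4.69) of the deepest. In the multiome library the medians were 3848 and 4243, a difference of -395. The interval of the cluster 10 median, less the median of the other multiome cells, ran from -845 to 296. There the cluster held 3.64% of the shallowest and 2.83% of the deepest bin, with overlapping intervals. The number of cut sites belongs to the data that were clustered, so this is a description. The part of depth in the size of the scATAC cluster was not tested.

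Relative to the cut sites in peaks, cluster 10 cells had more counts in genes. Gene activity totals the fragments over genes, and its ratio to cut sites was taken per cell after the values had been seen. The median ratio was 0.963 (0.959 to 0.968) in cluster 10 and 0.918 in other eribulin scATAC cells. In the multiome library it was 0.994 (0.988 to 1.00) and 0.970. Intervals of medians are order statistic intervals over cells and do not cover differences between libraries. In scATAC the ratio fell with depth in both groups of cells. Cluster 10 was higher in 5 of 5 depth bins in either library, by 0.011 to 0.042 in scATAC and by 0.017 to 0.042 in the multiome assay. The intervals of both groups were apart in 5 of the 5 scATAC bins and in 4 of the 5 multiome bins.

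Among the main clusters cluster 10 ranked 3 of 9 by this ratio in scATAC and 3 of 6 in the multiome library, so that the ratio did not set it apart from every other state. In scATAC cluster 15 (1.06) and cluster 12 (0.973) were higher and cluster 11 (0.956) was next below. In the multiome library cluster 15 (1.01) and cluster 11 (0.999) were higher, and their intervals overlap that of cluster 10. The median ratio was also higher within a single lineage: the 58 cells of 95-33662 in cluster 10 had a median of 1.00 (0.988 to 1.02), and the 95 cells of the same lineage in cluster 0 had 0.978 (0.960 to 0.985). The means had the opposite order, at 1.01 in cluster 10 and 1.05 in cluster 0. Depth was not matched in this comparison, with medians of 5097 and 5747 cut sites. The denominator of the ratio counts the clustered peaks, so the ratio is not independent of how the cluster was drawn.

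**Figure D5:**
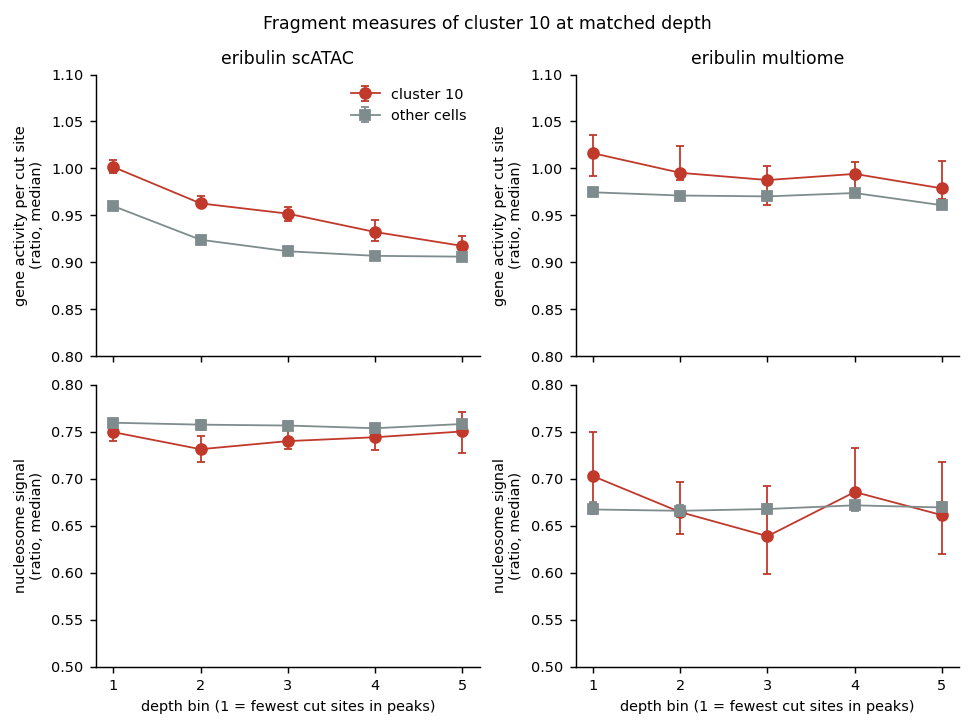
Points give medians over cells in each of 5 bins of an eribulin library by cut sites in peaks, for cluster 10 (red) and other cells (grey), with 95% order statistic intervals. The upper panels plot gene activity per cut site (ratio) and the lower ones the nucleosome signal (ratio). The activity ratio is higher in cluster 10 in 5 of 5 bins of either library, and the nucleosome signal is lower in 5 of 5 scATAC bins and 3 of 5 multiome bins. The nucleosome intervals of both groups are apart in 1 of 5 scATAC bins and 0 of 5 multiome bins.

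Measures of fragment length and of cuts at gene starts differed little and not in the same direction in both assays. The nucleosome signal, the ratio of fragments about as long as 1 nucleosome to shorter ones, had a median of 0.743 (quartiles 0.679 and 0.812) in cluster 10 and 0.757 in other eribulin scATAC cells. Of the 1533 cells 56.1% (53.6 to 58.6) lay below the median of the others. In the multiome library the medians were 0.678 and 0.668, a difference of 0.010. The interval of the cluster 10 median, less the median of the other multiome cells, ran from -0.007 to 0.023. TSS enrichment, which sets cuts at gene starts against those in the sequence around them, was 5.19 in cluster 10 and 5.03 in other scATAC cells. In the multiome library it was 5.01 and 5.07, a difference of -0.053, with an interval taken in the same way of -0.137 to 0.049. Within lineage 95-33662, TSS enrichment was 4.85 (4.67 to 5.0) in cluster 10 and 5.05 (4.88 to 5.33) in cluster 0.

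The few untreated cells of cluster 10 fell into 2 kinds by their surroundings. Of the 20 untreated scATAC cells, 6 lay where at least 50% of the 30 nearest eribulin scATAC cells were in cluster 10, and 14 lay elsewhere. Of the 12 untreated multiome cells 4 and 8 did. Among untreated cells of their own library none of the 32 had mostly cluster 10 neighbours. The 12 multiome cells are too few to make up 50% of 30 neighbours. The 20 scATAC cells could do so only if most of them lay together. This count therefore does not show whether untreated cells form an island of their own. The 6 scATAC cells within the island had a nucleosome signal of 0.943 to 1.19, with a median of 1.07. This is the level of other untreated scATAC cells (median 1.07) and not that of the eribulin cells of the cluster (0.743). The 4 multiome cells within the island had values of 0.681, 0.707, 0.862 and 1.07. The lower 2 of these lay nearer the median of eribulin multiome cells of the cluster (0.678) than that of other untreated multiome cells (0.907). The higher 2 did not.

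The untreated multiome cells of the cluster came from many lineages. A barcode was called in 9 of the 12, and the 9 barcodes were all different. The 4 cells within the island carried 55-37135, 54-66684, 89-9923 and 34-59707, named after their place was seen. Only the first of these was also found after eribulin, in 11 multiome cells, none of them in cluster 10. Lineage 95-33662 had 6 untreated multiome cells, of which 4 were in cluster 3, 1 in cluster 2 and 1 in cluster 10. That cell lay outside the island, as 0 of its 30 nearest eribulin scATAC cells were in cluster 10, and had a nucleosome signal of 0.986. The 2 untreated cells of 29-49561 were in clusters 2 and 3.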

How the data were processed

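Chromatin accessibility of single PB3 cells was measured in 4 libraries, 1 per group. Per the series' design text, the authors made peak counts with cellranger-atac 1.2.0 (run 1) or cellranger-arc 1.0.0 (run 3) on mm10, then filtered, clustered and mapped cells with Signac 1.1.1. The deposited counts are whole numbers per cell of cut sites, peaks and gene activity, not normalized. The deposited nucleosome signal and TSS enrichment are a ratio each, named per the file headers. Each axis of the deposited UMAP is a score with no unit. The sources used here do not give how barcodes were called.

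Cells with seurat cluster number 10 were compared with the other cells of their library. Barcode names were reduced to the numbers of both parts. Doublets, multiplets and unmapped cells were left out of lineage shares only. Named are lineages with at least 5 cluster 10 cells in an eribulin library and the 5 most frequent of each. The members and lists were chosen with earlier results of these data known. Clopper-Pearson and median intervals and neighbour shares were tested on simulated data. Gene activity per cut site and leaving out shared cell barcodes were added after the data were seen. Scripts ran in Python 3.11.15 with scipy 1.17.1, numpy 2.4.6, pandas 2.3.3 and, for figures, matplotlib 3.10.9.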

Additional observations from a re-analysis of the deposited data

Results flagged for a closer look

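The differences of cluster 10 from the other cells of its library had opposite signs in the 2 eribulin libraries for the following measures. These differences between the assays were not tested, since each is 1 library. TSS enrichment differed by 0.164 in scATAC and by -0.053 in the multiome library, and the nucleosome signal by -0.014 and 0.010. The multiome intervals, which cover the error of the cluster 10 median only, were -0.137 to 0.049 and -0.007 to 0.023. Both span negative and positive values, so no multiome direction was established. By depth, the multiome nucleosome signal was lower in cluster 10 in 3 of 5 bins. The share of 95-33662 among called cells differed by -7.59 percentage points in scATAC and by 60.9 in the multiome library, that of 29-49561 by -3.80 and 8.87, that of 55-23349 by 25.8 and -9.88, and that of 39-41529 by 7.34 and -3.63. For each of these lineages the scATAC intervals of cluster 10 and of the other cells overlap, and for 39-41529 the multiome intervals overlap too. In the multiome library the share of 95-33662 in cluster 10 lowers those of 55-23349 and 39-41529 there. The scATAC shares rest on 5 called cells in the cluster, of which the median had 2073 cut sites.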

How the results depend on the processing

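Of 67 alternative values for 26 results, 47 stayed within the interval of the reported value. With at least 3000 cut sites per cell, cluster 10 held 7.97% of the eribulin scATAC cells in place of 9.17%, and 19.6% of the other multiome cells had a barcode. With names that hold a sequence, 95-33662 had 6.51% of the other called multiome cells and 48.8% of its own cells in cluster 10. Without the largest cluster, cluster 0, these values were 5.32% and 71.6%, and 29-49561 had 72.7% of its cells in cluster 10, which follows from leaving out cells of both lineages. With means, the scATAC differences were -2286 cut sites, -0.022 in nucleosome signal and 0.041 in activity per cut site, and the multiome activity difference was 0.014. Among cells with 3000 to 10000 cut sites the scATAC differences were -829.5 cut sites and 0.042 in activity, and the multiome activity difference was 0.018. Among cells with 1 called barcode, 5 of them in the scATAC cluster, the scATAC differences were -4561 cut sites, 0.544 in TSS enrichment and 0.092 in activity, and that in nucleosome signal reversed to 0.030. The multiome ones were -979.5 cut sites and -0.188 in TSS enrichment. Numbers of neighbours and thinning to equal cells moved no core share beyond its interval. Barcodes of doublets could not be counted, because the table used does not name them. Lineage was measured in 83 multiome and 5 scATAC cells of the cluster, which limits every statement on its makeup.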
